A study of Homo sapiens with 16 samples.

Results

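The genes described here are the 8 members of the MYC, MAX and MXD network that were measured in the LN229 cell line: MYC, its partner MAX, and the repressors MXI1, MXD1, MXD3, MXD4, MNT and MGA. They were chosen by name, with no threshold on their values, and are 8 of the 13559 genes listed for a first experiment and of the 14024 listed for a second. LN229 is an established human glioblastoma line, so every library comes from the same line. In the first experiment, untreated cells in regular culture (DMEM with serum) were compared with cells in ischemic culture, in which low nutrients were combined with hypoxia. In the second, each culture received the DMSO vehicle, VX745, an inhibitor of the kinase p38α, or MK25, an inhibitor of MK2, a kinase that p38 activates. There were 2 libraries in each of the 8 groups, 16 in all. The labels give no dose or time for these treatments, nor do they say whether the 2 libraries of a group came from separate cultures, so the p-values measure only the spread between these libraries.

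MYC is a transcription factor that binds DNA as a pair with MAX, at a short sequence called the E-box, and activates genes for growth, ribosome production and metabolism. The MXD proteins (MXD1, MXI1, MXD3 and MXD4), MNT and MGA pair with the same partner MAX and bind the same kind of site. MXD proteins and MNT bring SIN3 corepressor complexes to it, and MGA is a large protein of a Polycomb complex called PRC1.6. The level of MYC and the levels of the proteins that compete with it for MAX are therefore usually considered together. What was measured here is mRNA, which does not give the amount of protein, and MYC protein in particular is known to turn over fast.

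All 8 members were well counted, with between 157 and 5969 reads per gene and library. The libraries held between 20122017 and 37562668 reads on listed genes. The 10 most abundant genes took 5.66% to 6.45% of the reads in ischemic libraries and 4.23% to 4.65% in regular ones, and the part of this difference in the results was not tested. Of 11 glioma genes, 9 had a row, among them VIM at a log2 level of 11.1 to 12.8 and SOX2 at 3.13 to 6.48. GFAP, the astrocyte filament, was low with 21 to 55 reads, and SOX9 had 2 to 26 reads in the first experiment. The markers moved with culture in both directions, 4 of the 9 higher and 4 lower in ischemic culture with DMSO. Over all genes 34.4% were called higher and 35.2% lower there. Among the markers, VIM moved by 1.27 and SOX9 by 2.71 upward on the log2 scale and SOX2 by -2.23 and NES by -1.06. The part of the markers in the results was not tested. Of 9 markers of other cell types, such as PTPRC of blood cells and PECAM1 of endothelium, 1 (COL1A1) had a row. Since RNA was taken from whole cultures, fewer cells and less RNA per cell cannot be told apart. Values are log2 normalised CPM, read counts scaled to the size of the library and set on a log2 scale, and a gene is called changed at an adjusted p under 0.05.

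The promoters of the 3 repressors that move together below, MXI1, MXD1 and MNT, are shown with that of MXD4. MXD4 has the E-box but limma fitted to all groups did not call it between the cultures, with or without an inhibitor. Some refits did call it, as with VX745 when the compared groups alone were fitted (0.17 on the log2 scale, limma, adjusted p = 0.0489). In ischemic culture MXD4 rose with both inhibitors. Each line gives the bases 250 to 71 before a RefSeq transcript start in GRCh38.p14, 5′ to 3′ on the gene's strand. Capitals mark the E-box CACGTG and the hypoxia response cores ACGTG and GCGTG, searched on both strands, where every CACGTG also holds ACGTG. The windows are chr10:110209981-110210160 (+) for MXI1, chr2:69914859-69915038 (+) for MXD1, chr17:2401131-2401310 (-) for MNT and chr4:2262180-2262359 (-) for MXD4, and none of the 4 reaches an annotated exon of its gene, that of MXI1 lying in an intron of its longest transcript.
MXI1: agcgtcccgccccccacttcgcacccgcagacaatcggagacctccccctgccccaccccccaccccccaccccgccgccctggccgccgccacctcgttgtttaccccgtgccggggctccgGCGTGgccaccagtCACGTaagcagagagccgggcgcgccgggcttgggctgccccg
MXD1: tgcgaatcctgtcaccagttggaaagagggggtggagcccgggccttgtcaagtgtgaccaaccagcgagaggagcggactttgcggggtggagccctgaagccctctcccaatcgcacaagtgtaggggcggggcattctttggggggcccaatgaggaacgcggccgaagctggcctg
MNT: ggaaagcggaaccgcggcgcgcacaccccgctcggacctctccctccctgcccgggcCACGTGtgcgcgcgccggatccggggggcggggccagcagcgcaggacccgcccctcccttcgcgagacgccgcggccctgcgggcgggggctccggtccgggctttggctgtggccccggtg
MXD4: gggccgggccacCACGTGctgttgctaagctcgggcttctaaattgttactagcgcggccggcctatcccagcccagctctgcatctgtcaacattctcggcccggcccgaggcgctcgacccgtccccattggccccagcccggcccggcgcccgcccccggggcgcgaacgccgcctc

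The MNT E-box begins 193 bases before the start and that of MXD4 238 bases before. Over the full 250 bases before each start, 12 windows of 7 members were read, since MXI1 and MGA have 3 starts each and MAX has 2. CACGTG was in 2 of the 12, against 6.34% of 35097 human promoter windows of the same length. ACGTG was in 5 of the 12, against 18.5%, and GCGTG in 5 of the 12, against 32.2%. In MXI1 the window shown is the middle one of its 3 starts. The window of the first start holds none of the motifs, and that of the third holds GCGTG. The MXD1 window holds none of these letters. The match is a description of the sequence, and binding was not measured.

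Under the ischemic condition MYC and 3 of its 6 repressors were upregulated together, and these 3 rose further than MYC in fold. The other repressors were not called higher in untreated cells or with DMSO. The share of MYC in the level summed with all 6 repressors rose in both, as given below. MXI1, MXD1 and MNT were between 5.11-fold and 12.8-fold higher in ischemic than in regular culture over both experiments. MYC was 3.37-fold higher in the first experiment and 3.82-fold higher with DMSO in the second. MAX, MXD4 and MGA were not called in either. In the first experiment 5 of 8 members were called, where 70.4% of all genes were, and with DMSO 4 of 8, where 69.6% were, so the number of members called is close to the background. Rises of at least 2-fold were rarer over all genes (11.3% in the first experiment and 9.03% with DMSO), and 4 of the 8 members had one in each. The median difference over the 6 repressors was 1.40 on the log2 scale in the first experiment and 1.21 with DMSO, beside -0.01 over all genes in both. No repressor lay near these medians, which fall between MXD4 (0.18 and 0.06) and MNT (2.61 and 2.35).

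**Figure D1:**
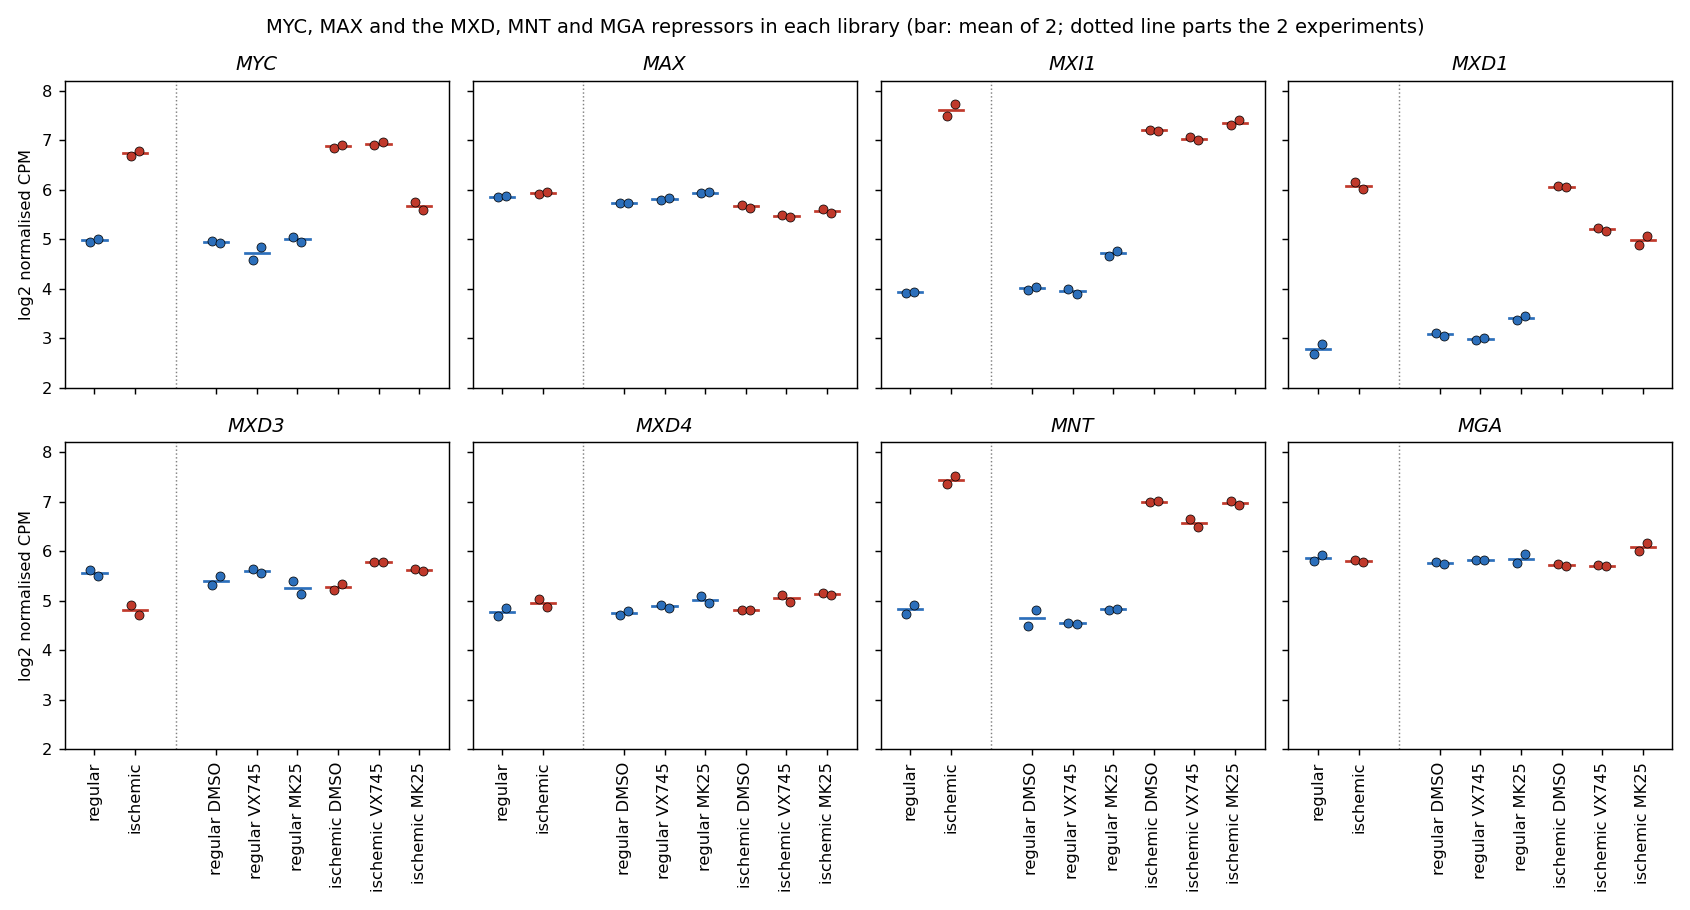
The level of each member, in log2 normalised CPM, in each of the 16 libraries (points) with the mean of the 2 libraries of a group (bar), ischemic groups in red and regular groups in blue. MYC, MXI1, MXD1 and MNT stand higher in every ischemic library than in every regular library of the same experiment, MYC drops to a mean of 5.68 with MK25 in ischemic culture, and MAX, MXD4 and MGA stay within a narrow band.

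MYC (chr8:127735434-127742951, + strand, GRCh38) was at 6.68 and 6.79 log2 CPM in the ischemic libraries of the first experiment and at 4.96 and 5.01 in the regular ones. The groups did not overlap, and the log2 difference was 1.75 (SE 0.08, adjusted p = 1.25e-09, limma). In the second experiment it was at 6.85 and 6.91 in ischemic DMSO libraries and at 4.96 and 4.93 in regular DMSO libraries. The log2 difference was 1.93 (SE 0.08, adjusted p = 7.64e-13), again with no overlap. The other ischemic and regular libraries are given with the inhibitors below.

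MXI1 (chr10:110207605-110287365, + strand), which pairs with MAX to repress MYC target genes and is known as a target of the hypoxia factor HIF1, had the largest fold of the 8 members in both experiments. It was at 7.49 and 7.73 log2 CPM in the untreated ischemic libraries and at 3.92 and 3.94 in the regular ones. This is a log2 difference of 3.67 (SE 0.09, adjusted p = 6.97e-12), or 12.8-fold. With DMSO it was at 7.21 and 7.19 in ischemic and at 3.99 and 4.05 in regular culture, a log2 difference of 3.19 (SE 0.06, adjusted p = 3.92e-17), or 9.10-fold. The ischemic libraries stood far above the regular ones in both experiments.

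MXD1 (chr2:69915109-69942945, + strand), first known as MAD1 and typically raised when cells differentiate, had the lowest level per kilobase of the 8 members in every regular library. It was at 6.15 and 6.02 log2 CPM in untreated ischemic and at 2.69 and 2.89 in untreated regular libraries, a log2 difference of 3.30 (SE 0.10, adjusted p = 7.77e-11), or 9.82-fold. With DMSO it was at 6.07 and 6.05 in ischemic and at 3.12 and 3.05 in regular libraries, a log2 difference of 2.98 (SE 0.08, adjusted p = 3.93e-15), or 7.87-fold. The libraries of a group lay close together in both experiments, and the groups were well apart.

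MNT (chr17:2384073-2401060, - strand), the repressor usually present in growing and resting cells alike, was at 7.37 and 7.52 log2 CPM in untreated ischemic and at 4.74 and 4.92 in untreated regular libraries. The log2 difference was 2.61 (SE 0.08, adjusted p = 9.28e-11), or 6.12-fold. With DMSO it was at 6.99 and 7.01 in ischemic and at 4.48 and 4.81 in regular libraries, a log2 difference of 2.35 (SE 0.09, adjusted p = 1.39e-13), or 5.11-fold. A gene on the opposite strand covers 21.6% of the exon bases of MNT, and the library kit does not mark strand, so reads from the pair cannot be told apart there. Opposite-strand genes cover 5.21% of the exon bases of MYC, 5.37% of MAX and 5.91% of MXI1.

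Of the other 4 members, MXD3 was called in the first experiment alone and the rest in neither. MXD3 (chr5:177305499-177312752, - strand), an MXD protein usually high in dividing cells, was at 4.91 and 4.70 log2 CPM in untreated ischemic and at 5.62 and 5.49 in untreated regular libraries. This was a fall of 0.75 on the log2 scale (SE 0.09, adjusted p = 1.39e-05) with no overlap. With DMSO its libraries overlapped, at 5.21 and 5.34 in ischemic and at 5.32 and 5.49 in regular culture, and its difference of -0.13 was not called (95% confidence interval -0.30 to 0.05, adjusted p = 0.189). The difference between the experiments, which were normalised separately, was not tested. MAX (chr14:65006101-65102695, - strand), the shared partner, differed by 0.08 (95% confidence interval -0.08 to 0.23) without treatment and by -0.06 (-0.19 to 0.06) with DMSO. MXD4 (chr4:2247432-2262109, - strand) differed by 0.18 (-0.03 to 0.39) and 0.06 (-0.10 to 0.22). The untreated MXD4 value was called without ischemic replicate 2, at 0.25 (adjusted p = 0.0315). MGA (chr15:41621224-41769940, + strand) differed by -0.07 (-0.24 to 0.10) and -0.03 (-0.18 to 0.11).

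**Figure D2:**
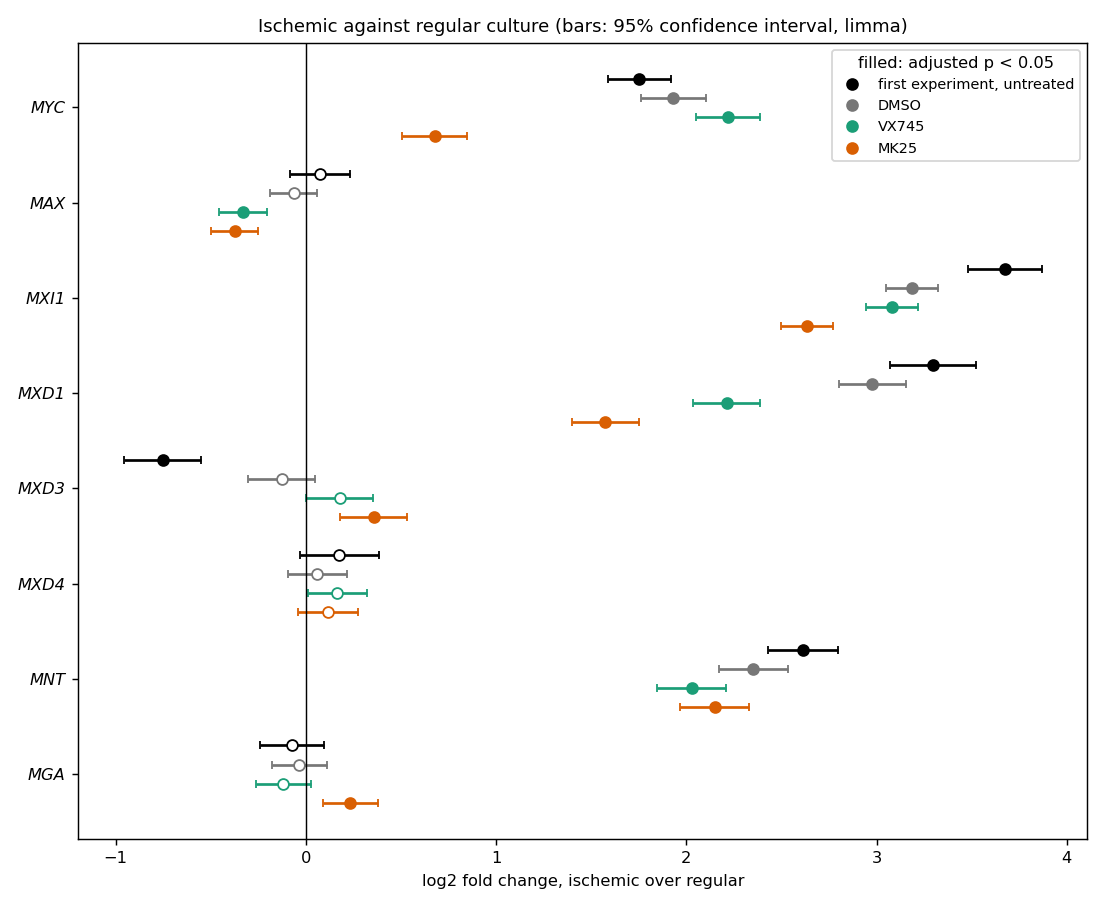
The log2 fold change of each member, ischemic over regular culture, in the 4 settings in which the cultures were compared, with 95% confidence intervals from limma. Filled points have an adjusted p under 0.05. MXI1, MXD1 and MNT lie above 1.5 in every setting, MYC drops to 0.68 with MK25, and MAX, MXD4 and MGA lie within 0.4 of 0.

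MXI1, MXD1 and MNT were also higher in ischemic than in regular culture when both cultures had an inhibitor. With VX745 in both cultures, 5 of 8 members differed between ischemic and regular culture (66.6% of all genes) and 4 rose at least 2-fold (9.28% of all genes). With MK25, 7 of 8 differed (67.2% of all genes) and 3 rose at least 2-fold (8.56% of all genes). MXI1 was 3.08 higher on the log2 scale with VX745 and 2.64 higher with MK25, and MNT 2.03 and 2.15 higher. MXD1 was 2.21 higher with VX745 and 1.57 higher with MK25. MYC was 2.22 higher with VX745 but 0.68 higher with MK25 (SE 0.08, adjusted p = 8.58e-07). MAX was lower in ischemic culture with either inhibitor, by -0.33 (SE 0.06, adjusted p = 9.25e-05) with VX745 and by -0.37 (SE 0.06, adjusted p = 2.55e-05) with MK25. With MK25, MXD3 was higher by 0.36 (adjusted p = 0.00117) and MGA by 0.23 (adjusted p = 0.00636), and the MGA call was lost without ischemic MK25 replicate 2 (0.16, adjusted p = 0.101) or regular MK25 replicate 1 (0.15, adjusted p = 0.108).

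Of all members and both inhibitors, the largest difference from DMSO was the fall of MYC with MK25 in ischemic culture. MYC was at 5.75 and 5.60 log2 CPM with MK25, at 6.91 and 6.96 with VX745 and at 6.85 and 6.91 with DMSO. Both MK25 libraries lay below every other ischemic library and above every regular one. Against DMSO, MYC fell by 1.20 on the log2 scale with MK25 (SE 0.08, adjusted p = 8.31e-09), a level 2.30-fold lower. With VX745 the difference was 0.06 and was not called (95% confidence interval -0.11 to 0.23, adjusted p = 0.629). The inhibitors themselves differed for MYC by -1.26 (MK25 over VX745, SE 0.08, adjusted p = 5.56e-09). The comparisons of MK25 and of VX745 with DMSO share their DMSO libraries, so the values are given side by side.

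In regular culture MYC was at 5.04 and 4.96 with MK25, at 4.58 and 4.85 with VX745 and at 4.96 and 4.93 with DMSO. Neither inhibitor gave a call there, with a difference of 0.05 for MK25 (95% confidence interval -0.12 to 0.22) and of -0.23 for VX745 (-0.40 to -0.06, adjusted p = 0.198). The effect of MK25 on MYC differed between the cultures by -1.26 (interaction, SE 0.11, adjusted p = 9.83e-07). The effect of VX745 did not pass the test of that difference, at 0.29 (SE 0.11, adjusted p = 0.111), although it did without regular VX745 replicate 2 (0.42, adjusted p = 0.0199).

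MXD1 fell with both inhibitors in ischemic culture. It was at 5.24 and 5.17 log2 CPM with VX745 and at 4.89 and 5.08 with MK25, against 6.07 and 6.05 with DMSO, and the groups did not overlap. The fall was 0.86 on the log2 scale with VX745 (SE 0.08, adjusted p = 2.01e-06) and 1.08 with MK25 (SE 0.08, adjusted p = 5.69e-08). The inhibitors differed by -0.22 (MK25 over VX745, 95% confidence interval -0.40 to -0.04, adjusted p = 0.0821), which is not past the threshold. In regular culture MXD1 was at 2.97 and 3.02 with VX745 and at 3.37 and 3.45 with MK25, against 3.12 and 3.05 with DMSO. The interaction with culture was -0.77 for VX745 (SE 0.12, adjusted p = 0.000988) and -1.40 for MK25 (SE 0.12, adjusted p = 5.11e-07).

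MNT fell with VX745 in ischemic culture, from 6.99 and 7.01 to 6.65 and 6.49, by 0.43 on the log2 scale (SE 0.09, adjusted p = 0.00147), and was at 7.03 and 6.93 with MK25, a difference of -0.02 that was not called (95% confidence interval -0.21 to 0.16). The inhibitors differed for MNT by 0.40 (MK25 over VX745, adjusted p = 0.00286), a call lost without ischemic VX745 replicate 2 (0.32, adjusted p = 0.0648). MXI1 was at 7.06 and 7.01 with VX745 and at 7.31 and 7.40 with MK25, against 7.21 and 7.19 with DMSO. Neither difference from DMSO passed the test (-0.17, adjusted p = 0.0602, and 0.16, adjusted p = 0.064), while the inhibitors differed from each other by 0.32 (SE 0.06, adjusted p = 0.00175). Both differences from DMSO were called with voom (adjusted p = 0.0264 and 0.0267) and with the compared groups alone (0.00769 and 0.0277). That with VX745 was also called with libraries centred on their median (0.039), and that with MK25 under quantile normalization (0.007).

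MXD3 rose with both inhibitors in ischemic culture, to 5.78 and 5.77 with VX745 and to 5.64 and 5.60 with MK25. The log2 differences were 0.50 (SE 0.08, adjusted p = 0.000371) and 0.34 (SE 0.08, adjusted p = 0.00347). MXD4 rose by 0.23 with VX745 (SE 0.07, adjusted p = 0.027) and by 0.32 with MK25 (SE 0.07, adjusted p = 0.00265). MGA was at 6.01 and 6.16 with MK25 against 5.75 and 5.70 with DMSO, a rise of 0.36 (SE 0.07, adjusted p = 0.000542), and differed by -0.02 with VX745. For MGA the inhibitors differed by 0.38 (MK25 over VX745, adjusted p = 0.000783). MAX fell by 0.19 with VX745 (SE 0.06, adjusted p = 0.0209), and its difference of -0.10 with MK25 was not called.

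In counts, VX745 changed 5 of 8 members in ischemic culture (28.9% of all genes) and MK25 also 5 (41.7% of all genes), and 4 of 8 differed between the inhibitors (18.4% of all genes). The count for VX745 was 3 without ischemic VX745 replicate 1 or ischemic DMSO replicate 1. In those settings the call of MAX (adjusted p = 0.0677 and 0.152) and that of MXD4 (adjusted p = 0.263 and 0.109) were lost. MAX also lost its call without ischemic VX745 replicate 2 (adjusted p = 0.154) and MXD4 without ischemic DMSO replicate 2 (adjusted p = 0.0934).

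In regular culture limma called 0 of 8 members with VX745, where it called 0.335% of all genes, and voom on the recovered reads also called 0. At an unadjusted p under 0.05 there were 2, MYC at -0.23 and MXD3 at 0.19. MK25 changed 4 of 8 (12.2% of all genes), all upward. MXI1 rose from 3.99 and 4.05 with DMSO to 4.67 and 4.77 with MK25, by 0.70 on the log2 scale (SE 0.06, adjusted p = 8.76e-07), or 1.63-fold, without overlap. MXD1 rose by 0.33 (adjusted p = 0.0173), MXD4 by 0.26 (adjusted p = 0.0282) and MAX by 0.21 (adjusted p = 0.0259). Voom did not call MXD1 there (adjusted p = 0.0955). The call of MAX was lost without each of the 4 libraries compared (adjusted p = 0.054 to 0.102) and those of MXD1 and MXD4 without 2 and 3 of them (adjusted p up to 0.21), while MXI1 kept its call without each library. By the interaction test, 2 members (MXD1 and MAX) responded differently to VX745 in the cultures (11.8% of all genes) and 5 to MK25 (24.4% of all genes). For VX745 the call of MAX (-0.27, adjusted p = 0.0468) was lost without each of the 8 libraries in turn (adjusted p = 0.0585 to 0.17) and under quantile normalization, voom, no variance trend and a replicate block (adjusted p = 0.0509 to 0.0724).

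**Figure D3:**
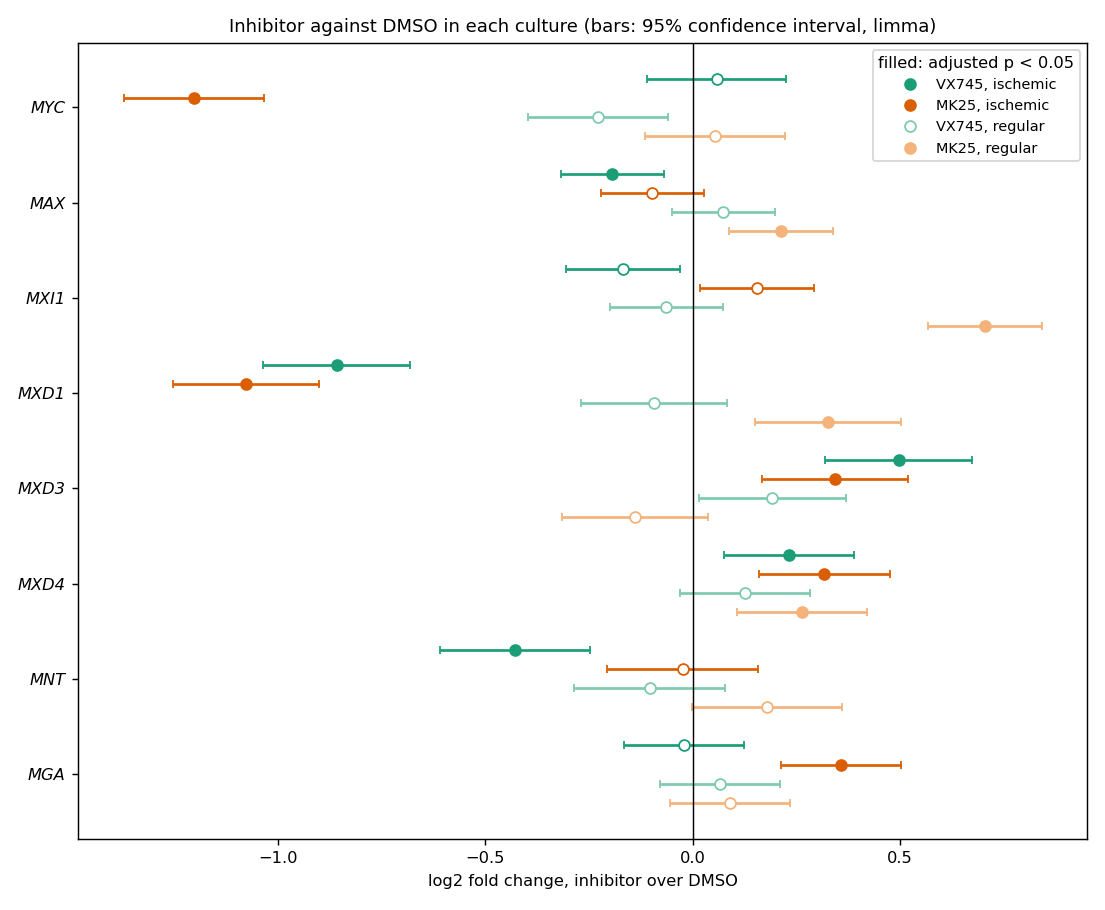
The log2 fold change of each member, inhibitor over DMSO, for both inhibitors in ischemic and in regular culture, with 95% confidence intervals from limma and filled points at an adjusted p under 0.05. MYC falls by 1.20 with MK25 in ischemic culture and in no other setting has a filled point, MXD1 falls with both inhibitors in ischemic culture, and MXI1 rises by 0.70 with MK25 in regular culture.

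Levels of different genes were set side by side per kilobase of the canonical transcript. The summed level of the 6 repressors was 67.3 ± 1.13 CPM per kb (SD, n = 2) in untreated regular and 142.8 ± 5.32 in untreated ischemic culture, and 62.4 ± 4.46 and 128.4 ± 2.04 with DMSO. MYC rose from 8.49 ± 0.22 to 28.7 ± 1.54 CPM per kb in the first experiment and from 8.27 ± 0.12 to 31.6 ± 0.91 with DMSO. MYC was 11.2% of the sum of MYC and its repressors in untreated regular culture and 16.7% in untreated ischemic culture. The shares were 11.7% and 19.8% with DMSO, 9.43% and 20.5% with VX745, and 11.8% and 8.98% with MK25. With MK25, MYC was therefore a smaller share in ischemic culture than in regular culture, and it was a larger share in the other 3 settings.

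The make-up of the repressors also changed. MXD3 was 65.4% of their summed level in untreated regular culture and 18.4% in untreated ischemic culture, while MXI1 and MNT together went from 15.1% to 64.2%. With DMSO, MXD3 went from 63.6% to 28.3% and MXI1 with MNT from 15.6% to 53.3%. In the ischemic libraries with VX745 MXD3 was 40.1%, and with MK25 33.1%. MAX was at 29.0 ± 0.34 CPM per kb in untreated regular and at 30.6 ± 0.77 in untreated ischemic culture. Per unit of the summed level of MYC and the repressors, MAX was at 0.383 in untreated regular and at 0.178 in untreated ischemic culture, and at 0.375 and 0.158 with DMSO. These values rest on 1 transcript per gene, and MXI1 has several starts, so the shares would change with another transcript length.

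**Figure D4:**
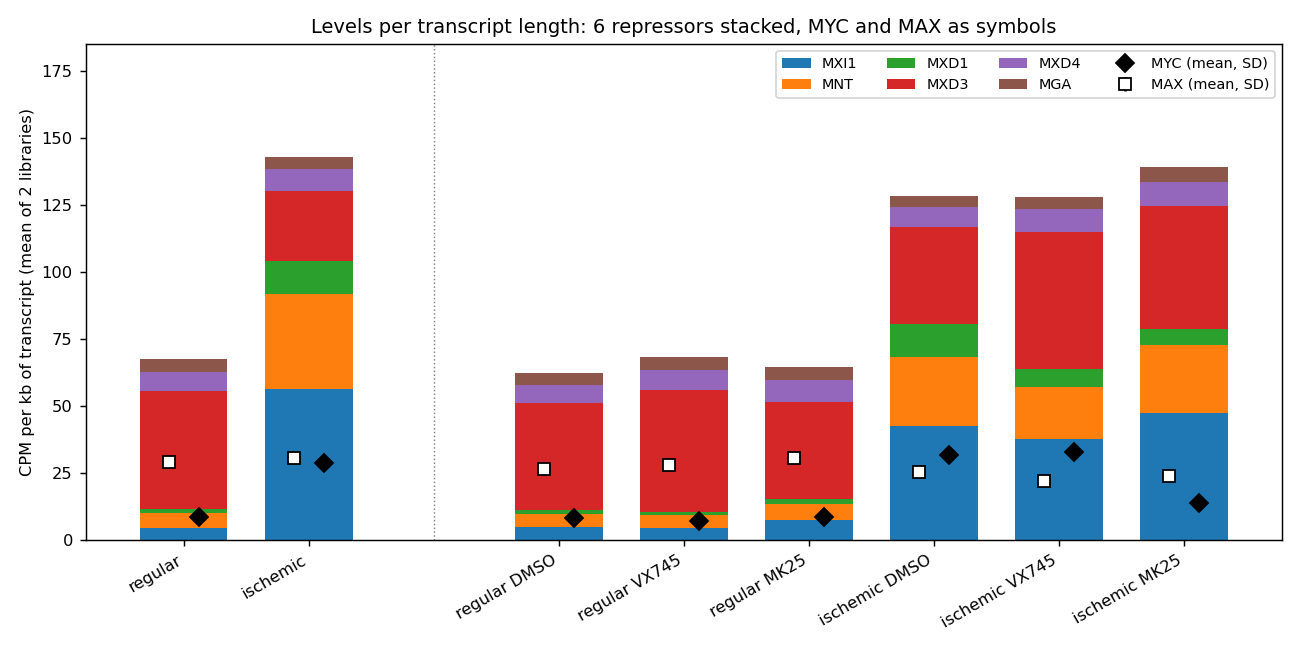
Mean level per kilobase of transcript in each group, with the 6 repressors stacked in bars from 0 and MYC (diamonds) and MAX (squares) as means with SD of the 2 libraries. The bars reach 62.4 to 68.2 CPM per kb in the regular groups and 127.8 to 142.8 in the ischemic groups, and the MYC diamond is lower with MK25 (13.7) than in the other ischemic groups (28.7 to 32.9).

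On the log2 scale, the level of MYC minus the mean of the 6 repressors was 0.56 and 0.69 in the untreated ischemic libraries and 0.38 and 0.34 in the untreated regular ones. With DMSO it was 0.84 and 0.89 in ischemic and 0.39 and 0.27 in regular libraries. With VX745 it was 0.99 and 1.11 in ischemic and -0.07 and 0.24 in regular libraries. With MK25 it was -0.26 and -0.44 in ischemic and 0.19 and 0.11 in regular libraries. The ischemic libraries were thus higher in 3 settings and lower with MK25. These differences describe the libraries and have no test, and the first depends on the members averaged, since without MGA it was -0.05 in place of 0.26. MAX minus the mean of the repressors was -0.17 ± 0.05 in untreated ischemic and 1.24 ± 0.05 in untreated regular culture, and -0.34 ± 0.05 and 1.12 ± 0.07 with DMSO.

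Within the second experiment, the order of the levels of MYC on the log2 scale was ischemic VX745, ischemic DMSO, ischemic MK25, regular MK25, regular DMSO and regular VX745, and the libraries of regular MK25 and regular DMSO overlapped. For MXI1 the order was ischemic MK25, ischemic DMSO, ischemic VX745, regular MK25, regular DMSO and regular VX745, with overlap between the last 2. For MXD1 no neighbouring groups overlapped, and ischemic DMSO was highest. For MNT, ischemic DMSO and ischemic MK25 overlapped at the top, and regular DMSO and regular VX745 at the bottom. For MAX no neighbouring groups overlapped, with regular MK25 highest and ischemic VX745 lowest. MXD3, MXD4 and MGA had 3, 2 and 3 overlapping pairs of neighbours, over ranges of group means from 5.27 to 5.78, 4.76 to 5.14 and 5.71 to 6.08.

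Across the 12 libraries of the second experiment, MXI1 and MNT followed each other most closely of all member pairs (Pearson's r = 0.99). MXD1 had an r of 0.961 with MNT, 0.954 with MXI1 and 0.929 with MYC, and MYC had 0.855 with MXI1. MAX had -0.721 with MYC and -0.752 with MNT. For MYC, MXI1, MXD1, MNT and MAX the ischemic libraries lay apart from the regular ones, so these correlations include the difference between cultures. For MXD3, MXD4 and MGA the ischemic and regular groups were interleaved. How much of the spread culture sets was not tested. Over 10053 genes with a mean log2 CPM of at least 3, those most like MYC were ASB1 (r = 0.99), PLAUR (0.988) and TSEN15 (0.988). Among those most like MXI1 were TNIP1 (0.998) and NDRG1 (0.998). For MXD1 they were EPRS1 (0.997), MTHFD2 (0.997) and MAP1LC3B (0.994), for MNT MOB3A (0.999), ATG9A (0.998) and FKBP9P1 (0.996). For MAX they were MED11 (0.977), ATP6V1G1 (0.972) and CALR (0.968). The closest were GAS2L1 (0.932), a locus without a symbol (0.906) and TNFSF12 (0.902) for MXD3, NIPSNAP1 (0.964), FRG1HP (0.919) and ECH1 (0.918) for MXD4, and RIGI (0.932), XYLB (0.927) and ZNF436 (0.926) for MGA. Of the 24 genes chosen as the 3 closest to each member, 4 were also among the 3 closest by Spearman's rho, so the ranking depends on the measure.

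Other members of the wider family were low or moved differently. MYCN and MYCL, the relatives of MYC, were counted with 30 to 155 and 24 to 158 reads per library. MYCN fell in ischemic culture, by 1.31 on the log2 scale without treatment (SE 0.24, adjusted p = 0.000371) and by 1.02 with DMSO (SE 0.20, adjusted p = 0.000248). With MK25 in ischemic culture it was at 2.10 and 2.09 log2 CPM against 0.69 and 0.88 with DMSO, a rise of 1.31 (SE 0.20, adjusted p = 7.8e-05), the opposite direction to MYC. MYCL rose there with VX745 (0.70, adjusted p = 0.0106) and with MK25 (0.94, adjusted p = 0.000763). MLXIP, a glucose-sensing partner of the MAX-like protein MLX, fell with ischemia by 0.83 with DMSO (adjusted p = 1.07e-08) and rose with VX745 by 0.50 and with MK25 by 0.42. MLX differed by 0.13 with DMSO and was not called (adjusted p = 0.0587). It was lower by -0.18 with VX745 (adjusted p = 0.0285) and by -0.21 with MK25 (adjusted p = 0.0101) in ischemic culture. MLXIPL had no row.

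Lists of genes that MYC is known to activate were compared next, beside all genes, of which 34.4% were called higher and 35.2% lower in ischemic culture with DMSO. Among 40 ribosome biogenesis genes, 2 rose and 29 fell, with a median log2 difference of -0.52 beside -0.01 over all genes. NOP56, a box C/D ribonucleoprotein subunit, fell by 1.44 and RRS1, a ribosome assembly factor, by 1.62, while PES1 rose by 0.30 and FBL by 0.28. Of 17 measured translation and chaperone genes, 14 fell and none rose, with a median of -0.43, and EIF4G1, the scaffold of the cap-binding complex, fell by 0.95 and EEF1E1 by 0.92. Of 21 cell cycle genes, 18 fell and 2 rose, with a median of -0.46. CDC25A, a phosphatase that activates cyclin-dependent kinases, fell by 2.21 and CCNE1, cyclin E1, by 1.62, and CKS1B rose by 0.59. In the first experiment, 4772 of all 13559 genes were called higher and 4768 lower. There 1 rose and 32 fell in the ribosome list (median -0.72), 0 and 17 in the translation list (-0.87) and 1 and 17 in the cell cycle list (-0.91). MYC mRNA thus rose in libraries in which most genes of these 3 lists were lower.

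Among 24 nucleotide and polyamine genes, 9 rose and 10 fell with DMSO, with a median of -0.06, and 6 rose and 13 fell in the first experiment, with a median of -0.30. MTHFD2 and SHMT2, enzymes of mitochondrial one-carbon metabolism, rose by 2.33 and 1.90, and SLC19A1, a folate carrier, and CTPS1, which makes CTP, fell by 1.15 and 1.03. Of the 12 targets shared with HIF1, 11 rose and 1 fell, with a median of 1.47. PDK1, which restrains pyruvate entry to mitochondria, rose by 4.27 and HK2, hexokinase 2, by 4.12, while TFRC, the transferrin receptor, fell by 0.62. Of 18 measured genes that MYC is known to repress, 10 rose and 7 fell, with a median of 0.36. NDRG1 rose by 6.35 and GADD45A by 1.67, and TXNIP fell by 3.88 and GAS1 by 2.57. The genes named in these 6 lists were chosen among those called with DMSO and with the same sign in the first experiment, so neither is support for the lists.

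Where MK25 lowered MYC, in ischemic culture, genes of these lists were lower as well, in a comparison in which 19.8% of all genes were called higher and 22.0% lower with MK25. Of the ribosome biogenesis genes 34 of 40 fell and 1 rose, with a median of -0.37. Of the translation and chaperone genes 16 of 17 fell, with a median of -0.40, of the nucleotide and polyamine genes 16 of 24, with a median of -0.27, and of the cell cycle genes 13 of 21, with a median of -0.22. NOP56 fell by 0.36, CTPS1 by 0.69, MTHFD2 by 0.87 and CCNE1 by 0.74. With VX745, which left no call on MYC, 14.0% of all genes were called higher and 14.9% lower. There 23 of 40 ribosome biogenesis genes fell (median -0.20), 13 of 17 translation and chaperone genes (median -0.26), 9 of 24 nucleotide and polyamine genes (median -0.13) and 6 of 21 cell cycle genes (median -0.05). With MK25 in regular culture, where MYC had no call, 981 of 14024 genes were called higher and 731 lower. Of the ribosome biogenesis genes 8 fell and 0 rose there, and of the translation and chaperone genes 2 and 0. Of the nucleotide and polyamine genes 4 fell and 3 rose, and of the cell cycle genes 6 and 2. The part of MYC in these differences was not tested.

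Of the targets shared with HIF1, in ischemic culture 12 of 12 fell with VX745, with a median of -0.35, and with MK25 6 fell and 1 rose, with a median of -0.17. In regular culture, where MK25 raised MXI1, 11 of these 12 rose with MK25 (7.0% of all genes were called higher there) and 0 fell, with a median of 0.44. With VX745 in regular culture limma called 0 of the 12, with a median of 0.02. In ischemic culture, of the genes that MYC represses, 7 of 18 rose and 6 fell with VX745, and 6 rose and 7 fell with MK25. GADD45A rose by 0.71 with VX745 and fell by 0.44 with MK25, and GAS1 rose by 1.01 and 0.93.

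**Figure D5:**
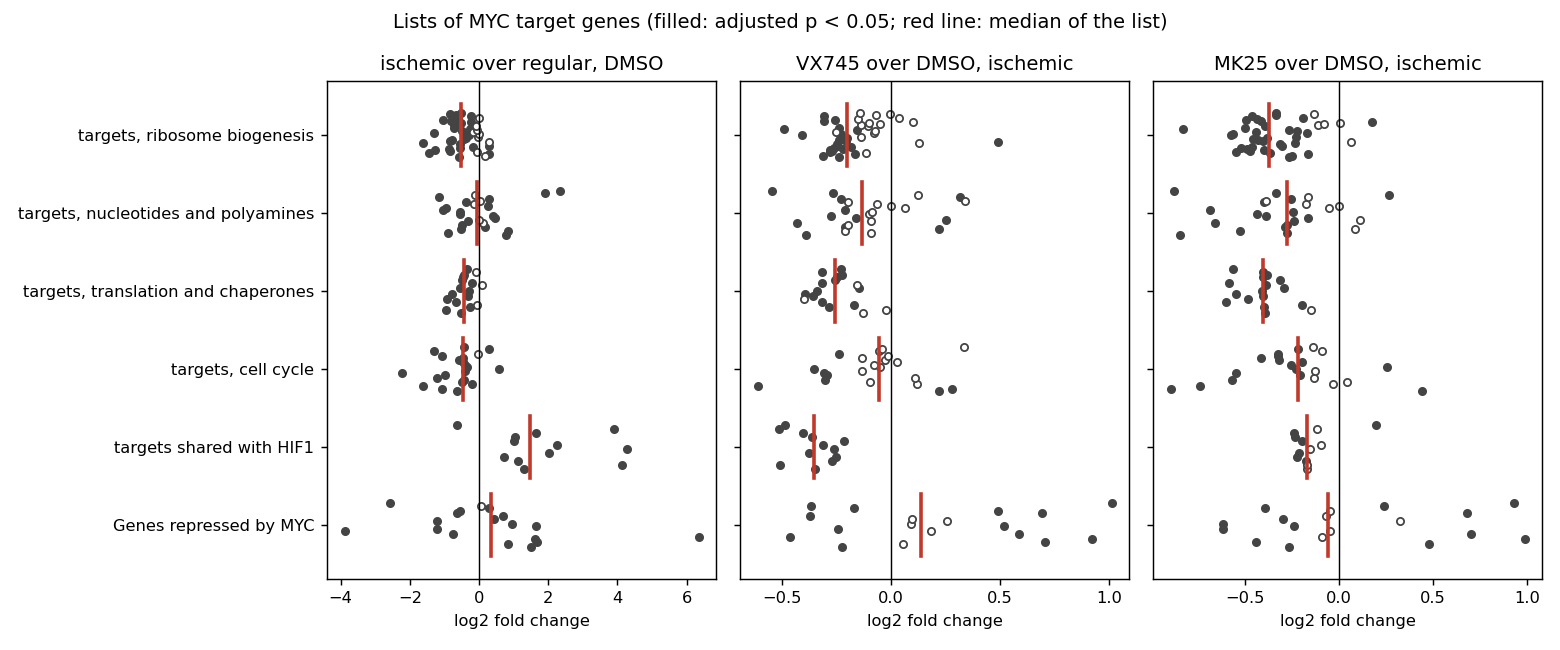
The log2 fold change of each measured gene in 6 lists of MYC target genes, for ischemic over regular culture with DMSO and for each inhibitor over DMSO in ischemic culture; filled points have an adjusted p under 0.05 and the red line is the list's median. With MK25 the medians of the 5 lists of activated genes lie between -0.40 and -0.17, and the horizontal scale differs between the panels.

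Lists of proteins that work with the network moved in both directions, as did all genes. With DMSO, 34.4% of all genes were called higher and 35.2% lower in ischemic culture. The counts for cofactors, turnover genes and corepressors were not far from these shares. Of 19 measured MYC cofactors, 7 rose and 9 fell in ischemic culture with DMSO (median -0.05). KAT5, an acetyltransferase, rose by 1.07, and HCFC1 fell by 0.46 and KAT2A by 0.42. Of 20 genes for the turnover of MYC protein, 8 rose and 7 fell (median -0.02). SKP2, a ubiquitin ligase subunit, fell by 1.99 and CIP2A, which stabilises MYC, by 0.85, while PIM1 rose by 1.23 and USP28, a deubiquitinase, by 0.91. With VX745 and MK25 in ischemic culture SKP2 was higher by 0.71 and 0.59.

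Of 18 SIN3 and NCOR corepressor genes, the machinery that MXD proteins and MNT recruit, 8 rose and 6 fell with DMSO (median 0.05). Over all genes 34.4% were called higher and 35.2% lower. SAP30, a SIN3 complex subunit, rose by 1.95 and ING2 by 1.07, and RBBP4 fell by 0.85 and BRMS1L by 0.63. Of 11 measured members of the PRC1.6 complex of MGA, 2 rose and 5 fell with DMSO (median -0.14). In the first experiment 1 rose and 7 fell (median -0.37), beside 4772 of 13559 genes called higher and 4768 lower. With DMSO, E2F6 and its partner TFDP1 fell by 1.16 and 1.11, and RYBP and YAF2 rose by 1.01 and 0.57. In ischemic culture VX745 lowered SAP30 by 0.41, RYBP by 0.38 and YAF2 by 0.43, and the differences with MK25 for these 3 genes (-0.04, -0.07 and -0.25) were not called.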

How the data were processed

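RNA-seq was run on LN229 cells in 16 libraries made with the SMART-Seq mRNA HT and Nextera XT kits. The authors trimmed the reads and aligned them to GRCh38 with HISAT2 in Galaxy, edgeR is named in the submitters' processing notes, and they deposited log2 normalised CPM for each library, 1 table per experiment. Versions and the counting program are not given in the sources used here. The log2 values were used as deposited. For these values limma 3.58.1 (R 4.3.3) with a variance trend was fitted to each table, with 1 mean per group. P-values were adjusted by Benjamini-Hochberg over all genes of the table. The paper's edgeR, which needs counts, was not run on the reads recovered as described next. A gene was called at an adjusted p under 0.05. Undoing the logarithm gave whole reads for 100% of values (within 0.01 reads), with an offset of about 2 reads, and those reads were used for depth and for voom. With 2 libraries per group, their number limits the precision more than depth does.

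Members and gene lists were chosen with earlier results of these data known. From each list, up to 2 genes with the largest rise and 2 with the largest fall in ischemic culture with DMSO were named, if called, without overlap and with the same sign in the first experiment. Some genes that this rule or the likeness ranking selects are not reported here. MK25 was compared with VX745 after the data were examined. Levels per kilobase used GENCODE transcripts of GRCh38. The library names carry replicate numbers, but do not say what they mark. Deviations of same-numbered libraries had r = 0.27 for the 1 pair of the first experiment and r between -0.27 and 0.32 for the 15 pairs of the second, so no block was used. Alternatives were another scaling, a CPM filter, no variance trend, voom, a replicate block, the compared groups alone, a fold limit, and each library left out.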

Additional observations from a re-analysis of the deposited data

Results flagged for a closer look

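The difference of an inhibitor's effect between the cultures was itself tested (the interaction of inhibitor and culture in limma, adjusted over all genes). It was called for 24.4% of all genes with MK25 and for 11.8% with VX745. Of the members, 5 had such a difference. For MK25 these were MYC, at -1.26 on the log2 scale (adjusted p = 9.83e-07), MXD1, at -1.40 (5.11e-07), MXI1, at -0.55 (0.000412), MXD3, at 0.48 (0.00691), and MAX, at -0.31 (0.0121). MYC fell in ischemic culture and had no call in regular culture. MXD1 fell in ischemic and rose in regular culture, a rise not called with voom (adjusted p = 0.0955) or with the compared groups alone (limma, adjusted p = 0.168). MXI1 rose in regular culture and had no call in ischemic culture (limma, adjusted p = 0.064), although voom gave one there (adjusted p = 0.0267). For VX745 they were MXD1, at -0.77 (0.000988), and MAX, at -0.27 (0.0468). The MAX difference with VX745 lost its call without each of the 8 libraries in turn, at adjusted p from 0.0585 to 0.17, and that with MK25 without ischemic DMSO replicate 1 (adjusted p = 0.0578).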

How the results depend on the processing

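Over the 8 members and 11 comparisons, 961 of 1024 recomputed fold changes kept their direction and their side of the threshold, 36 lost their call, 21 gained one and 6 changed sign, all 6 for members with no call. These were MGA with VX745 in ischemic culture (0.013 under quantile normalization, -0.047 to 0.0058 with a library left out), MNT with MK25 in ischemic culture (0.055 under quantile normalization, -0.074 to 0.026 with a library left out), MNT with VX745 in regular culture (-0.27 to 0.061 with a library left out) and MXD4 in the interaction of MK25 with culture (-0.015 to 0.12 with a library left out). With a limit of 1.5-fold added, the number of members called was 4 between the cultures with MK25 (32.6% of all genes), 1 for VX745 (5.26%) and 2 for MK25 (9.67%) in ischemic culture, 1 for MK25 in regular culture (2.49%), 1 for MK25 against VX745 (3.96%), 1 for the interaction of VX745 (3.09%) and 2 for that of MK25 (7.94%). For MK25 in regular culture, 1 member was called when the compared groups alone were fitted. For the interaction of VX745, 1 member was called under quantile normalization, without a variance trend, with voom and with the replicate block. With a library left out, the numbers were 3 to 4 for VX745 in ischemic culture, 2 in each case for MK25 in regular culture and 1 to 2 for the interaction of VX745. Over all genes, counts of calls moved past 1.5 times for VX745 in ischemic culture (4051, and 2191 to 2396 without 3 of its libraries in turn), VX745 in regular culture (47, and 6 to 346), MK25 in regular culture (1712, and 754 to 1060), MK25 against VX745 (2580, and 1323 to 1657) and the interaction of VX745 (1653, and 594 to 1026), mostly with a library left out, the compared groups alone or no variance trend. MYC minus the repressors, ischemic minus regular, was 0.62 with their median and -0.049 without MGA in untreated cells, 0.74 and 0.24 with DMSO, 1.19 and 0.69 with VX745, and -0.25 and -0.69 with MK25. By Spearman's rho, 4 of the 24 most similar genes remained. In the second experiment, deviations of same-numbered libraries had r from -0.27 to 0.32 over 15 pairs of groups. Whether the numbers pair some of the libraries cannot be told from these values, and 1 pair cannot show it in the first. The replicate block kept 87 of 88 fold changes on their side of the threshold, the exception being MAX in the interaction of VX745 (adjusted p = 0.0545). The cause of these changes was not tested, and 2 libraries per group limit what small differences can show.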
